A study of Homo sapiens with 24 samples.

Results

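The genes described here are 56 regulators and structural components of mitosis, taken from the 59609 gene symbols of a raw count table: 13 kinases, cyclins and phosphatases of mitotic entry, 2 centrosome kinases, 5 spindle checkpoint genes, 7 partners of the anaphase-promoting complex with separase, 4 chromosomal passenger complex genes, 3 other cell division cycle associated (CDCA) genes, 11 spindle assembly genes, 9 cytokinesis genes and 2 genes of the mitotic chromosome. They were chosen by name and function, with kinesins and kinetochore genes left out, and the rule uses no measured value. Earlier results of these data were known when the choice was made. Transcripts had been counted by 3′ RNA-seq (QuantSeq forward libraries, which read the end of the transcript) in 2 established ER-negative breast cancer cell lines, the mesenchymal MDA-MB-231 and the epithelial MDA-MB-453. Each line was treated for 5 days with the vehicle DMSO, with abemaciclib at 500 nM, an inhibitor of CDK4 and CDK6, with fulvestrant at 5 nM, a selective oestrogen receptor degrader, or with the combination of both drugs. There were 3 libraries in each of the 8 groups, and the submitters call them biological replicates.

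Entry into mitosis is driven by cyclin B with CDK1. WEE1 and PKMYT1 hold this kinase inactive by phosphorylation, CDC25 phosphatases release it, and the Polo and Aurora kinases act alongside it on centrosomes, kinetochores and the spindle. The spindle checkpoint then holds back the anaphase-promoting complex until chromosomes are attached, after which CDC20 activates the complex, securin and cyclin B are degraded, and separase opens cohesin. Most of these genes are transcribed late in the cell cycle, through promoters that carry CCAAT boxes bound by NF-Y and the cell cycle genes homology region (CHR), a short element read by the MuvB core of the DREAM and MYB-MuvB complexes. Inhibition of CDK4 and CDK6 keeps RB unphosphorylated and arrests RB-proficient cells in G1, before these genes are switched on.

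Library totals ran from 2873558 to 4158762 counts. The lines carried their expected identity markers: VIM and CD44 had counts in MDA-MB-231 and 0 counts in every MDA-MB-453 library, while ESR1, the oestrogen receptor gene, had 0 counts in 21 of the 24 libraries and at most 8 in the others. The defining leukocyte, liver, red cell and T cell markers PTPRC, ALB, HBB and CD3E were at 0 or 1 count, and PECAM1 of endothelium at 9 or fewer. The mitochondrial share of the counts moved with abemaciclib, from 8.83% ± 0.213 to 12.2% ± 1.05 in MDA-MB-231, then from 15.2% ± 0.653 to 23.8% ± 1.91 in MDA-MB-453 (SD, n = 3). Its part in the results below was measured by leaving the mitochondrial genes out, which gave 45 and 51 genes lower under abemaciclib, as with them. Levels are in CPM, counts relative to the scaled library size, and a gene was called higher or lower at an adjusted p below 0.05 in edgeR's quasi-likelihood test over all genes of the comparison. NUSAP1 had 0 to 7 counts per library and was not tested, which leaves 55 genes.

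Abemaciclib lowered the mitotic genes in both lines, and much further in MDA-MB-453. Among the MDA-MB-231 libraries, 45 of 55 were called lower and the median log2 fold change was -0.87, where 16.9% of all 11314 genes tested were called lower and their median was 0.00. The same test called 51 of 55 lower in MDA-MB-453, with a median of -4.60, against 19.4% of 11080 genes and a median of 0.00. In neither line did a member rise: all 55 fitted values were negative in both, 0 were higher by edgeR or DESeq2 at the adjusted or the unadjusted threshold, and 16.9% and 16.6% of all genes were called higher. The genes lower in both lines numbered 43, with UBE2S and CKAP5 called in MDA-MB-231 alone, CDC25C, BUB1B, TTK, ESPL1, CDCA5, CIT, IQGAP3 and DEPDC1 in MDA-MB-453 alone, and BUB3 and FZR1 in neither.

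Summed over the 56 genes, the level was 7792, 8133 and 8097 CPM in the DMSO libraries of MDA-MB-231 and 4064, 3972 and 4395 under abemaciclib. The MDA-MB-453 sums were 3594, 3655 and 3587 under DMSO and 655, 609 and 633 under abemaciclib. The sum thus stood at 51.7% of the DMSO mean in MDA-MB-231 and at 17.5% in MDA-MB-453, with no overlap between treated and control libraries in either line. BUB3, FZR1, UBE2S and CKAP5, the members not called lower in MDA-MB-453, made up 10.8% of its DMSO sum and 52.9% of its abemaciclib sum, BUB3 alone 42.7%. In a bulk sample, fewer cells in mitosis and less mitotic RNA per cell cannot be told apart.

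**Figure D1:**
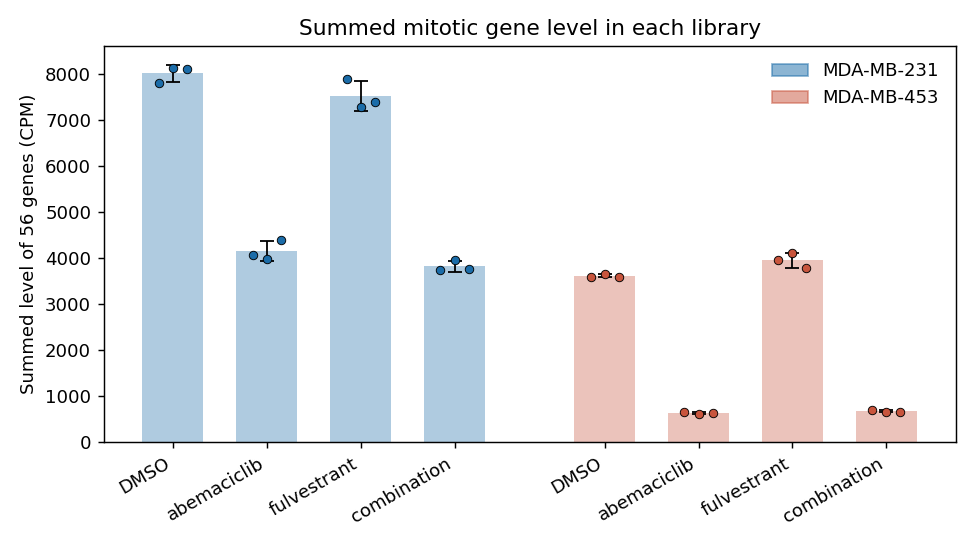
Summed level of the 56 genes in CPM (vertical axis, linear from 0) in the 24 libraries, by line and treatment. Points are libraries, bars the mean of 3 libraries and whiskers the SD. The abemaciclib and combination libraries lie below the DMSO and fulvestrant libraries of their own line, at means of 4144 and 3814 CPM in MDA-MB-231, then 632 and 668 CPM in MDA-MB-453.

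Gene by gene, the level left under abemaciclib in MDA-MB-231 was 26.6% to 89.2% of the DMSO level (median 54.5%). In MDA-MB-453 it ran from no counts at all to 89.1%, with a median of 4.08%. There, 28 of 55 genes kept less than 5% of their DMSO level and 34 less than 10%, and 5 kept more than 50%. The 55 log2 fold changes of the lines had a Pearson r of 0.253 and a Spearman rank correlation of 0.234 across genes, given as a description, since the genes share their libraries. In 51 of 55 genes the value was more negative in MDA-MB-453. Under abemaciclib in that line, 10 of the 56 genes had 3 or fewer counts over the group, 2 of them (CDCA3 and NUSAP1) at 0, and a fitted fold change of such a gene depends on the fit's prior count. With CDCA3 set at its bound of 53.3-fold, still a larger fall than the median, the median of -4.60 could not move. The other tested genes with few counts were not set at a bound. Leaving out 1 abemaciclib library of MDA-MB-453 moved the fold change of 19 of the 55 genes by over 1.5 times, none of them in sign, while in MDA-MB-231 it did so for 0. The shifts that turned on single libraries with most of a gene's counts included AURKB, from -5.24 to -10.05 without replicate 1, TROAP, from -5.60 to -9.16 without replicate 1, ESPL1, from -4.83 to -8.07 without replicate 3, BUB1, from -3.40 to -6.32 without replicate 2, and CDCA5, from -3.18 to -4.89 without replicate 2. The other genes that moved were CCNA2, DLGAP5 and CEP55 without replicate 3, and CIT and IQGAP3 without replicate 2. Without replicate 1 they were CDC25C, PLK1, MELK, NEK2, BUB1B, UBE2S and PTTG1, and ESPL1 moved there too. PBK and PRC1 moved without either replicate 1 or replicate 2. CDC25C, ESPL1, PBK and PRC1 had 0 counts in replicate 1 and moved toward 0 without it.

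Among the genes of mitotic entry, 12 of 13 fell in MDA-MB-231, against 13 of 13 in MDA-MB-453, with medians of -0.85 and -4.67. PLK1, the Polo kinase needed for centrosome maturation and mitotic entry, was at 233, 209.6 and 235 CPM under DMSO and 71.9, 68.8 and 86.0 under abemaciclib in MDA-MB-231 (log2 fold change -1.57, SE 0.118, adjusted p = 3.42e-14). In MDA-MB-453 it went from 154, 166 and 145 CPM to 0.801, 0 and 0.668 (log2 fold change -8.19, SE 0.269, adjusted p = 1.68e-28), so that the treated libraries of this line held between no count and 3 counts of the gene. AURKA, the Aurora kinase of centrosomes and spindle poles, went in MDA-MB-231 from 317, 322 and 304 to 149, 157 and 146 CPM (log2 fold change -1.06, SE 0.0991). It stayed well detected in MDA-MB-453, at 116, 131 and 129 CPM under DMSO and 19.0, 31.6 and 25.1 under abemaciclib (log2 fold change -2.33, SE 0.148). CCNB1, the B-type cyclin partner of CDK1, also fell in both lines, with 147, 149.7 and 165 CPM against 98.4, 80.4 and 85.7 CPM in MDA-MB-231 (log2 fold change -0.80, SE 0.115). Its MDA-MB-453 values were 90.8, 88.5 and 94.8 and 11.2, 16.5 and 15.4 CPM (log2 fold change -2.68, SE 0.171).

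CDC25C, a phosphatase that activates CDK1, was the member of this group not called in MDA-MB-231. Its levels there were 25.3, 21.3 and 17.1 CPM under DMSO and 14.2, 17.2 and 17.0 under abemaciclib, and the groups overlapped (log2 fold change -0.39, SE 0.225, adjusted p = 0.185). In MDA-MB-453 the same gene fell from 21.0, 20.8 and 11.6 to 0, 0.902 and 1.00 CPM (log2 fold change -4.81, SE 0.516, adjusted p = 1.62e-10). Of the entry genes not given by library, CDK1 itself had log2 fold changes of -0.85 in MDA-MB-231, then -5.09 in MDA-MB-453. CCNA2, the cyclin of S phase and G2, had -1.58 and -6.30. Of the inhibitory kinases, PKMYT1 had -1.20 and -4.67, and WEE1 had -0.87 and -1.69. The remaining members, CCNB2, CDC25A, CDC25B, MELK and the mitotic kinase PBK, had log2 fold changes from -1.26 to -0.52 in MDA-MB-231, then from -6.35 to -2.25 in MDA-MB-453.

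Both centrosome kinases fell in each line, and they gave the largest decreases of all members in MDA-MB-231. NEK2, which splits centrosomes before spindle formation, went from 21.1, 29.4 and 24.1 to 6.97, 6.53 and 6.39 CPM there (log2 fold change -1.90, SE 0.281, adjusted p = 7.10e-07). In MDA-MB-453 its DMSO libraries had 19.2, 12.8 and 16.8 CPM and its abemaciclib libraries 1 count over the group, a ratio of 163 (95% exact interval 28.8 to 6470, counting error only). PLK4, the kinase that starts centriole duplication, was low throughout: 8.93, 10.7 and 13.8 CPM against 2.51, 4.45 and 2.66 in MDA-MB-231 (log2 fold change -1.79, SE 0.399, adjusted p = 4.33e-04). The MDA-MB-453 levels were 7.40, 7.22 and 12.7 and 0.801, 1.20 and 1.00 CPM (log2 fold change -3.15, SE 0.556, adjusted p = 1.04e-05).

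The spindle checkpoint was split. In MDA-MB-231, 2 of its 5 genes fell (BUB1 and MAD2L1), and 4 of 5 in MDA-MB-453, the exception being BUB3. BUB1, the kinetochore kinase that recruits other checkpoint proteins, went from 146, 138 and 142 to 60.5, 60.2 and 63.4 CPM in MDA-MB-231, then from 34.0, 35.2 and 45.1 to 0.801, 9.92 and 0 in MDA-MB-453, with log2 fold changes of -1.20 and -3.40. Nearly all of the treated level in MDA-MB-453 came from abemaciclib replicate 2. MAD2L1, which encodes the inhibitor of CDC20 known as MAD2, went from 49.1, 47.5 and 68.6 to 42.4, 33.2 and 42.6 CPM in MDA-MB-231 (log2 fold change -0.48, SE 0.169, adjusted p = 0.0252). That call was lost with DESeq2 and without DMSO replicate 3 or abemaciclib replicate 2, where the adjusted p reached 0.277. In MDA-MB-453 the gene had 32.0, 33.6 and 31.2 CPM under DMSO and 6.41, 6.61 and 8.69 under abemaciclib (log2 fold change -2.17, SE 0.246).

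BUB3, a WD-repeat protein that binds BUB1 and BUBR1, changed little and was not called. It was at 162, 182 and 189.6 CPM under DMSO and 145, 154 and 149 under abemaciclib in MDA-MB-231, where the groups did not overlap (log2 fold change -0.25, SE 0.109, adjusted p = 0.0713). Its MDA-MB-453 levels were 300.1, 321 and 295 and 309.8, 241 and 259 CPM (log2 fold change -0.18, SE 0.0914, adjusted p = 0.121), where the groups overlapped. BUB1B, which encodes BUBR1, and the checkpoint kinase TTK differed between the lines in their calls. BUB1B had 19.6, 36.0 and 29.7 CPM under DMSO and 27.9, 19.3 and 15.4 under abemaciclib in MDA-MB-231 (log2 fold change -0.45, SE 0.223, adjusted p = 0.12). The MDA-MB-453 libraries went from 49.4, 41.9 and 42.5 CPM, higher than in the other line, to 2.14, 0.902 and 0.334 (log2 fold change -5.20, SE 0.376, adjusted p = 1.02e-15). TTK had 27.4, 31.4 and 35.6 against 25.1, 17.5 and 27.7 CPM in MDA-MB-231 (log2 fold change -0.42, SE 0.202, adjusted p = 0.107). It then fell from 17.5, 18.6 and 25.1 to 1.87, 1.50 and 1.34 CPM in MDA-MB-453 (log2 fold change -3.66, SE 0.377, adjusted p = 5.40e-11).

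Of the anaphase-promoting complex partners and separase, 5 of 7 fell in each line, not the same 5. PTTG1, which encodes securin, the inhibitor of separase, was among the most abundant members at 504, 514 and 501 CPM under DMSO and 233, 234 and 256 under abemaciclib in MDA-MB-231 (log2 fold change -1.07, SE 0.0892, adjusted p = 7.26e-13). In MDA-MB-453 it went from 102, 121 and 122 to 1.60, 0.301 and 0 CPM (log2 fold change -7.31, SE 0.288, adjusted p = 2.46e-25). UBE2C, the ubiquitin-conjugating enzyme that starts chains on the complex's substrates, went from 244, 237 and 259 to 139, 122 and 125 CPM in MDA-MB-231, then from 124, 156 and 142 to 3.47, 1.80 and 3.01 in MDA-MB-453 (log2 fold changes -0.94 and -5.65). CDC20, the mitotic activator of the complex, was at 168, 183 and 178 CPM under DMSO and 54.9, 54.6 and 63.1 under abemaciclib in MDA-MB-231 (log2 fold change -1.61, SE 0.119). It kept more of its level than securin in MDA-MB-453, at 74.6, 90.8 and 80.0 and 15.8, 18.6 and 19.7 CPM (log2 fold change -2.19, SE 0.171). Its copy CDC20P1 also had counts in every library and fell in both lines, so reads may be divided between them.

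FZR1, which encodes the G1 activator CDH1, was not called in either line. Its levels were 45.8, 60.5 and 44.2 CPM under DMSO and 37.6, 35.9 and 40.5 under abemaciclib in MDA-MB-231, with no overlap (log2 fold change -0.40, SE 0.162, adjusted p = 0.0536), and 36.7, 26.1 and 22.2 and 23.0, 28.6 and 20.4 in MDA-MB-453 (log2 fold change -0.24, SE 0.213, adjusted p = 0.403). UBE2S, the enzyme that lengthens ubiquitin chains on the same complex, was low, at 11.3, 17.0 and 12.4 CPM against 6.69, 2.37 and 5.32 in MDA-MB-231 (log2 fold change -1.48, SE 0.358, adjusted p = 0.00113). In MDA-MB-453 its libraries held 42 counts under DMSO and 13 under abemaciclib, or 2.07, 4.16 and 5.78 and 2.40, 0.601 and 0.668 CPM (log2 fold change -1.64, SE 0.673, adjusted p = 0.0515), and the groups overlapped. The copy UBE2SP2 held 14, 4 and 7 counts in the DMSO libraries of MDA-MB-231 and 4, 1 and 4 in those of MDA-MB-453. Reads may thus be divided between it and UBE2S. ESPL1, which encodes separase, had 9.23, 8.92 and 13.2 CPM against 6.97, 4.75 and 6.39 in MDA-MB-231 (log2 fold change -0.78, SE 0.367, adjusted p = 0.0962). In the other line it went from 11.8, 8.88 and 7.80 to 0, 0 and 1.00 CPM (log2 fold change -4.83, SE 0.716, adjusted p = 4.04e-07), or 99 counts to 3, a ratio of 31.8 (95% exact interval 10.6 to 157). FBXO5, which encodes the interphase inhibitor EMI1, had log2 fold changes of -0.93 and -3.57 in MDA-MB-231 and MDA-MB-453.

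All 4 genes of the chromosomal passenger complex, which corrects faulty kinetochore attachments, fell in both lines. BIRC5, which encodes survivin, had the smallest decrease of them in MDA-MB-231, from 217, 238 and 223 to 165, 183 and 153 CPM (log2 fold change -0.43, SE 0.106, adjusted p = 0.00129), while in MDA-MB-453 it went from 92.6, 82.4 and 89.9 to 2.14, 0.902 and 2.00 (log2 fold change -5.68, SE 0.251, adjusted p = 2.35e-23). AURKB, the complex's kinase, went from 196, 233 and 213 to 99.5, 88.1 and 80.9 CPM in MDA-MB-231 (log2 fold change -1.25, SE 0.111). Its MDA-MB-453 levels were 33.1, 40.0 and 42.2 CPM under DMSO and 2.67, 0 and 0 under abemaciclib, so all 10 treated counts came from replicate 1 (log2 fold change -5.24, or -10.05 without that library). CDCA8, which encodes borealin, had 145, 153 and 149.6 and 70.2, 55.2 and 84.4 CPM in MDA-MB-231, then 66.3, 45.8 and 48.3 and 5.08, 3.91 and 5.35 in MDA-MB-453 (log2 fold changes -1.09 and -3.48). The scaffold gene INCENP was the least affected in MDA-MB-453, at -1.12, with -0.76 in MDA-MB-231.

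Of the other CDCA genes, 2 of 3 fell in MDA-MB-231, against 3 of 3 in MDA-MB-453. CDCA3, a trigger of WEE1 degradation, was at 108, 118 and 118 CPM under DMSO and 51.3, 52.8 and 40.2 under abemaciclib in MDA-MB-231 (log2 fold change -1.25, SE 0.136). In MDA-MB-453 it had 166 counts over the DMSO libraries, or 19.5, 20.0 and 8.09 CPM, and 0 under abemaciclib, at least 53.3-fold lower if 3 counts in the group are taken as the limit. CDCA2, the chromatin-bound partner of protein phosphatase 1, had 111, 102 and 101 against 32.3, 41.8 and 42.9 CPM in MDA-MB-231, then 31.7, 28.9 and 35.2 against 5.34, 7.51 and 4.68 in MDA-MB-453, with log2 fold changes of -1.42 and -2.44. CDCA5, which encodes the cohesin protector sororin, was not called in MDA-MB-231, at 59.2, 49.2 and 58.3 CPM under DMSO and 47.6, 47.5 and 37.5 under abemaciclib (log2 fold change -0.33, SE 0.152, adjusted p = 0.0926). It fell from 35.5, 24.1 and 22.0 to 1.07, 7.21 and 0.668 CPM in MDA-MB-453 (log2 fold change -3.18, SE 0.390, adjusted p = 5.45e-09), again with abemaciclib replicate 2 the highest.

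Among the spindle assembly genes, 10 of 10 tested fell in MDA-MB-231, against 9 of 10 in MDA-MB-453. TPX2, which activates Aurora A on spindle microtubules, went from 321, 369.9 and 323 to 176, 166 and 166 CPM in MDA-MB-231, then from 159, 160.2 and 168 to 18.7, 21.3 and 17.0 in MDA-MB-453 (log2 fold changes -0.99 and -3.09). TACC3, which crosslinks kinetochore fibres, had 193, 192 and 199.6 and 99.8, 81.0 and 100.3 CPM in the first line and 118, 83.5 and 104 and 5.61, 6.31 and 7.35 in the second (-1.05 and -4.00). ASPM, a spindle pole protein, went from 113, 136 and 101 to 46.0, 61.1 and 55.9 CPM in MDA-MB-231, then from 121, 140.5 and 104 to 3.21, 2.40 and 2.34 in MDA-MB-453 (-1.10 and -5.50). These 3 genes, the most abundant of the group under DMSO, had no overlap between treated and control libraries in either line.

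CKAP5, which encodes the microtubule polymerase chTOG and also serves interphase microtubules, was the exception. It went from 97.3, 103 and 107 to 70.5, 73.0 and 73.7 CPM in MDA-MB-231 (log2 fold change -0.50, SE 0.126, adjusted p = 0.00175). It missed the threshold in MDA-MB-453, at 50.3, 53.9 and 52.9 against 29.9, 35.8 and 52.1 CPM (log2 fold change -0.43, SE 0.177, adjusted p = 0.0529), where the groups overlapped. That adjusted p became 0.00382 without abemaciclib replicate 3, the library with the highest of the 3 treated values. CKAP2 likewise fell little in MDA-MB-453, at -0.53 against -0.75 in MDA-MB-231, and without DMSO replicate 2 its adjusted p there was 0.052. The other members fell by 0.76 to 1.16 on the log2 scale in MDA-MB-231 and by 3.15 to 7.31 in MDA-MB-453: DLGAP5, HMMR and TROAP, which bundle or bind spindle microtubules, with CKAP2L and FAM83D. NUSAP1, the untested gene, had a mean of about 1.01 CPM under DMSO. In GENCODE v44, 3133 of its 3608 exon bases are shared with OIP5-AS1 and another gene on the same strand. The counting used an earlier GENCODE release, in which these overlaps were not examined.

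All 9 cytokinesis genes fell in MDA-MB-453 and 6 of them in MDA-MB-231. ANLN, which encodes anillin, the scaffold of the contractile ring, went from 157, 194 and 201 to 142, 114 and 111 CPM in MDA-MB-231, then from 46.5, 57.2 and 67.3 to 1.07, 1.80 and 1.00 in MDA-MB-453 (log2 fold changes -0.59 and -5.43). CEP55, which recruits the abscission machinery to the midbody, had 154, 169.6 and 166 against 62.4, 71.2 and 84.1 CPM, then 23.7, 29.7 and 23.7 against 0.267, 0 and 0.668, in the same order (-1.16 and -6.27). In MDA-MB-453 that was 269 counts against 3, a ratio of 86.4 (95% exact interval 29.3 to 422). ARHGAP11A, a GTPase-activating protein, had 91.7, 86.4 and 95.4 and 51.3, 39.8 and 56.2 CPM in MDA-MB-231, then 68.4, 69.1 and 69.9 and 15.2, 7.21 and 16.4 in MDA-MB-453 (-0.89 and -2.42). Its copy ARHGAP11B held at most 11 counts in a library. PRC1, the bundler of the central spindle, had -0.87 and -5.41, and RACGAP1, a centralspindlin subunit, -0.80 and -2.38. ECT2, the exchange factor that activates RhoA at the cell equator, fell by nearly the same amount in both lines, -0.52 and -0.57.

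The other 3 cytokinesis genes fell in MDA-MB-453 and were not called in MDA-MB-231. CIT, which encodes citron kinase, had 17.9, 19.6 and 29.1 CPM under DMSO and 21.2, 19.3 and 18.9 under abemaciclib in MDA-MB-231 (log2 fold change -0.16, SE 0.228, adjusted p = 0.631). In MDA-MB-453 it went from 12.7, 11.7 and 11.0 CPM to 1 count over the group, a ratio of 118 (95% exact interval 20.9 to 4719). IQGAP3, a scaffold protein of the IQGAP family, had 23.5, 38.0 and 21.8 against 22.3, 22.6 and 12.5 CPM in MDA-MB-231 (log2 fold change -0.54, SE 0.261, adjusted p = 0.107). Its 305 counts under DMSO in MDA-MB-453, or 26.3, 25.8 and 35.5 CPM, became 1 count, a ratio of 294 (95% exact interval 52.4 to 11650). DEPDC1 had 56.2, 49.8 and 60.6 and 44.6, 33.8 and 48.2 CPM in MDA-MB-231 (log2 fold change -0.39, SE 0.167, adjusted p = 0.0671), and fell from 31.4, 31.9 and 40.5 to 4.54, 3.31 and 2.00 CPM in MDA-MB-453 (log2 fold change -3.36, SE 0.297, adjusted p = 6.45e-13).

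The genes of the mitotic chromosome fell in both lines. TOP2A, the topoisomerase that untangles sister chromatids and the most abundant member, went from 1718, 1780.0 and 1735 to 831, 850.4 and 1093 CPM in MDA-MB-231 (log2 fold change -0.91, SE 0.0980, adjusted p = 5.34e-10) and from 306, 275 and 325 to 2.40, 3.61 and 3.34 in MDA-MB-453 (log2 fold change -6.60, SE 0.172, adjusted p = 2.76e-32). MKI67, which encodes the proliferation marker Ki-67 that coats mitotic chromosomes, had 481, 503 and 531 against 175, 177 and 201 CPM in MDA-MB-231 (log2 fold change -1.45, SE 0.109, adjusted p = 3.61e-14). The MDA-MB-453 levels were 299, 263 and 287 and 2.40, 0.902 and 2.00 CPM (log2 fold change -7.28, SE 0.222, adjusted p = 9.91e-30).

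**Figure D2:**
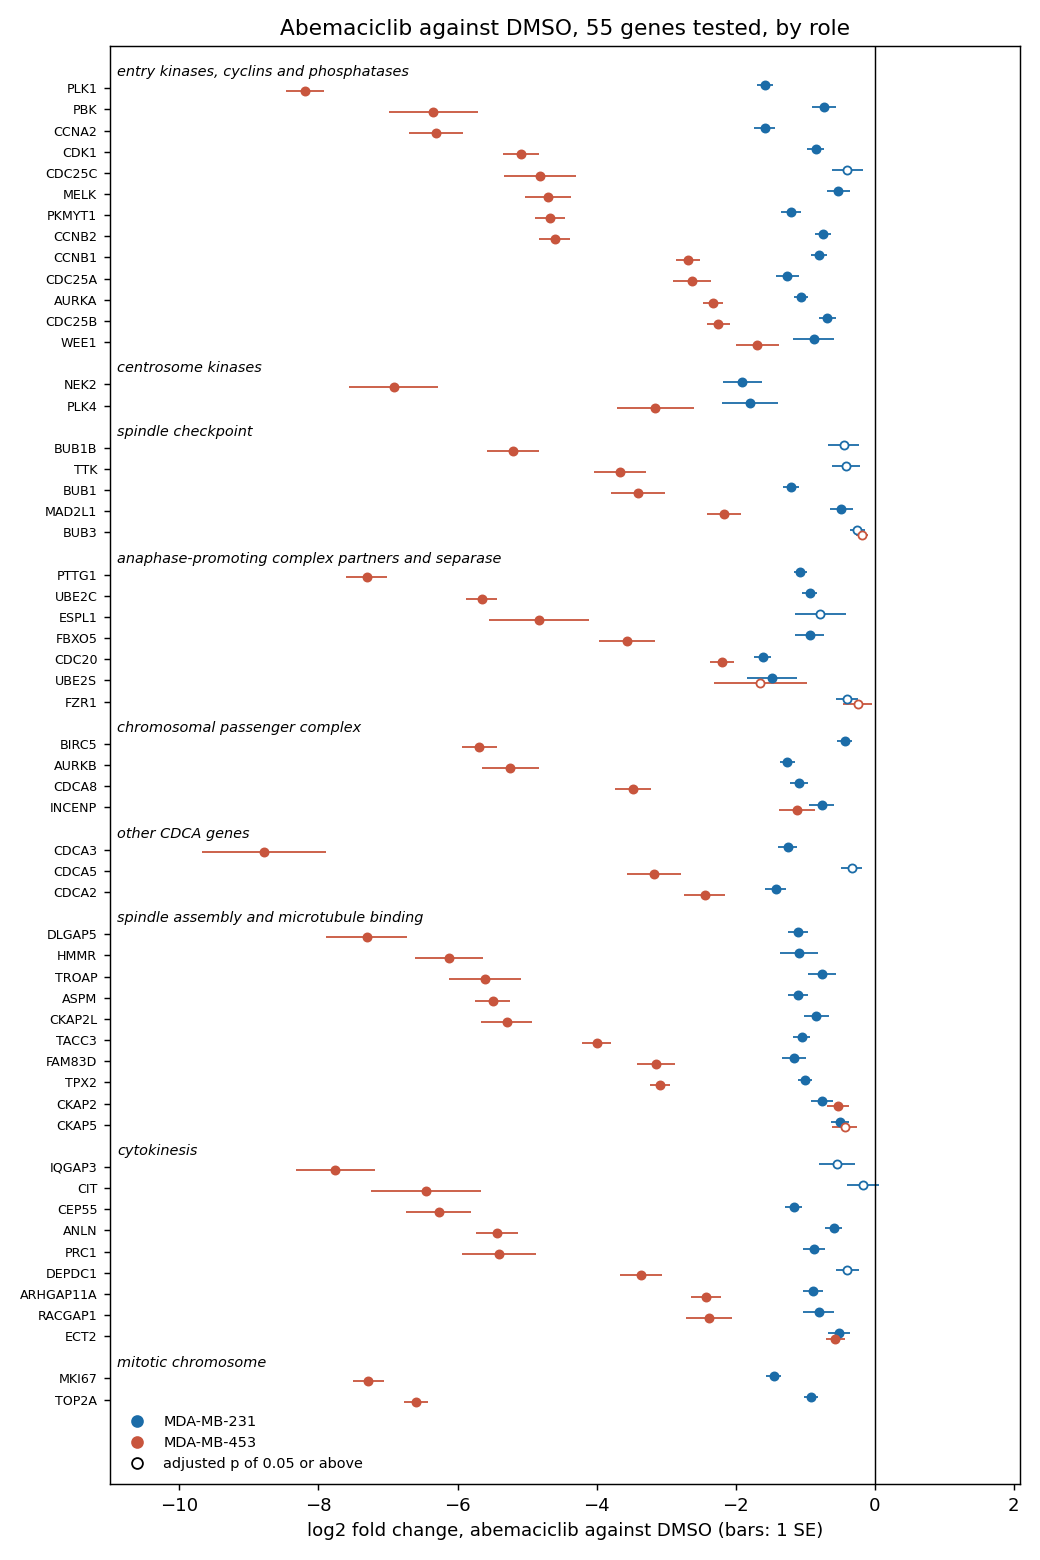
Log2 fold change of the 55 genes tested, abemaciclib against DMSO (horizontal axis), for MDA-MB-231 (blue) and MDA-MB-453 (red), grouped by role. Points are edgeR estimates from 3 libraries against 3, bars 1 SE, and open points were not called. The blue points lie between -1.90 and -0.16, while the red points spread from -8.79 (CDCA3, with 0 treated counts, a value that depends on the prior count) to -0.18, with BUB3, FZR1, CKAP5, CKAP2 and ECT2 the 5 nearest to 0.

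Under DMSO the lines did not start from the same level. Per the study's methods, MDA-MB-231 was grown in RPMI medium and MDA-MB-453 in DMEM. Line and medium therefore cannot be told apart in any comparison between the lines. Against MDA-MB-231, 42 of 55 members were lower in MDA-MB-453 and 3 higher, where 35.6% and 34.3% of all 12750 genes were called lower and higher. The median difference of the members was -0.84, and -0.03 over all genes. The largest were -2.85 for CDCA3, -2.66 for CEP55 and -2.53 for TOP2A. The genes higher in MDA-MB-453 were BUB3 (0.78), BUB1B (0.65) and PKMYT1 (0.44), and without DMSO replicate 1 of MDA-MB-231 only 1 of them was called.

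The difference between the lines in the abemaciclib effect was tested directly, with MDA-MB-231 subtracted from MDA-MB-453. It was called below 0 for 46 of 55 members, against 13.0% of all genes. It passed above 0 for 0 of 55 by edgeR or DESeq2 at the adjusted or the unadjusted threshold, where 7.72% of all genes were called above 0. The median difference was -3.46. The 9 members not called were WEE1, PLK4, BUB3, FZR1, UBE2S, INCENP, CKAP2, CKAP5 and ECT2. BUB3 (0.08, SE 0.144), CKAP5 (0.08, SE 0.223) and ECT2 (-0.04, SE 0.209) had the smallest differences, while PLK4 (-1.36, SE 0.677) and UBE2S (-0.14, SE 0.631) were too imprecise to place. Leaving out 1 abemaciclib library of MDA-MB-453 moved this difference by over 1.5 times for 18 of 55 members, none in sign, for example from -6.23 to -8.21 for PTTG1 and from -6.61 to -7.27 for PLK1 without replicate 1.

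The promoters of the members were searched for the elements named above, since the members moved together. RefSeq promoter sequences (GRCh38.p14, 250 bases before to 50 after the start) matched 43 of the 56 symbols. The searches covered both strands and took the CCAAT box as CCAAT, the CHR as TTTGAA or TTCGAA, and an E2F site as TTNNCGC in which each N is C or G. Where NN is a pair of G, the E2F letters can share their first letters with a reversed CCAAT box. The CHR letters were in 67.4% of the 43 promoters and in 16.6% of all 27305 promoters of the table, or 10.8% of the 8506 promoters of genes tested in MDA-MB-453. CCAAT was in 69.8%, against 35.7% of all promoters, and both together in 53.5%, against 6.58%. The E2F letters were in 30.2%, against 13.1% of all promoters and 21.8% of those of genes tested in MDA-MB-453. A match is a description of the sequence and not evidence of binding.

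To show how the elements lie, these are 200 bases of the coding strand, from 170 before to 30 after the annotated start. They come from 4 members that hold both elements (PLK1, CCNB2, CDCA3 and MKI67) and from 2 that fell little in MDA-MB-453 (CKAP5 and ECT2). The first 4 had log2 fold changes of -4.60 (CCNB2, at the median of the members) or below there. Members that fell further than CCNB2 without both elements include IQGAP3 (-7.76, no CCAAT box), PTTG1 (-7.31, no CHR) and MELK (-4.70, neither). Capitals mark a CCAAT box or a CHR on either strand, so that ATTGG is a reversed CCAAT box and TTCAAA a reversed CHR. The windows are chr16:23678719-23678918, plus strand for PLK1, chr15:59104976-59105175, plus strand for CCNB2, chr12:6851257-6851456, minus strand for CDCA3, chr10:128126394-128126593, minus strand for MKI67, chr11:46846251-46846450, minus strand for CKAP5 and chr3:172750556-172750755, plus strand for ECT2.
PLK1: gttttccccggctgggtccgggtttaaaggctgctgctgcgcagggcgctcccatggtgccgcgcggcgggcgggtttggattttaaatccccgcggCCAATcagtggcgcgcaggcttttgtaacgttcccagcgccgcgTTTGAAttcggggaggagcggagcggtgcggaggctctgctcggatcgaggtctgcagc
CCNB2: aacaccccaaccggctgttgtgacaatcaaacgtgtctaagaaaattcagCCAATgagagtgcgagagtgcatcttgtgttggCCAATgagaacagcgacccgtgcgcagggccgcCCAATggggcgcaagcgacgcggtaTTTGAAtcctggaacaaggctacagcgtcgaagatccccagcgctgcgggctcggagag
CDCA3: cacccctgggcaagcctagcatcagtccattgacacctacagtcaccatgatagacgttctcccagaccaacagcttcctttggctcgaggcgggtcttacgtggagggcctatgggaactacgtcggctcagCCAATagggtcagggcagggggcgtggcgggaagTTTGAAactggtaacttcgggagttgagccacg
MKI67: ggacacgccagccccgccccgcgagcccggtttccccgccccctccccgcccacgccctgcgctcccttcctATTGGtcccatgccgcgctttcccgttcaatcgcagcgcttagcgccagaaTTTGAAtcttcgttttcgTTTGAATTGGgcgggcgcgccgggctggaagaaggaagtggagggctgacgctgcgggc
CKAP5: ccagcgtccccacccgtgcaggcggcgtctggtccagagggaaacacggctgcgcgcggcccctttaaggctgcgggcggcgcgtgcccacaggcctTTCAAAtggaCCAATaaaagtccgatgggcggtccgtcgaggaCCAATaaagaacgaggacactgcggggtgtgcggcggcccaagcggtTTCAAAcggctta
ECT2: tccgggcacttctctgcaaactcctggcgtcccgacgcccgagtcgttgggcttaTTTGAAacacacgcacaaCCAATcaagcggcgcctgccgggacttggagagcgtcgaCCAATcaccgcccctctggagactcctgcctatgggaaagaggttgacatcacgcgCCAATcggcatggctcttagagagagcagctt

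In PLK1 a CCAAT box begins 73 bases before the start and a CHR 29 before it. CCNB2 has CCAAT boxes at 120, 87 and 54 bases before the start, then a CHR at 29. In MKI67 the CHR nearest the start shares a letter with a reversed CCAAT box. CKAP5 and ECT2 hold both kinds of element too, although their log2 fold changes in MDA-MB-453 were -0.43 and -0.57. Of the members with a promoter, 42 were tested, and the 22 with both elements gave a median of -5.19 in MDA-MB-453 against -3.78 for the 20 others. In MDA-MB-231 the same medians were -0.89 and -0.84. Taken singly, the 28 with a CHR had medians of -5.14 in MDA-MB-453 and -0.84 in MDA-MB-231, against -3.78 and -0.99 for the 14 without, and the 29 with a CCAAT box -5.24 and -1.09, against -3.57 and -0.59 for the 13 without. The 12 with the E2F letters had -3.99 and -0.82, against -4.76 and -0.90 for the 30 without. Among the 6 tested members with a value of -2 or above in MDA-MB-453, 4 had a CHR and 4 a CCAAT box, and among the 36 below -2 the shares were 66.7% and 69.4%.

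**Figure D3:**
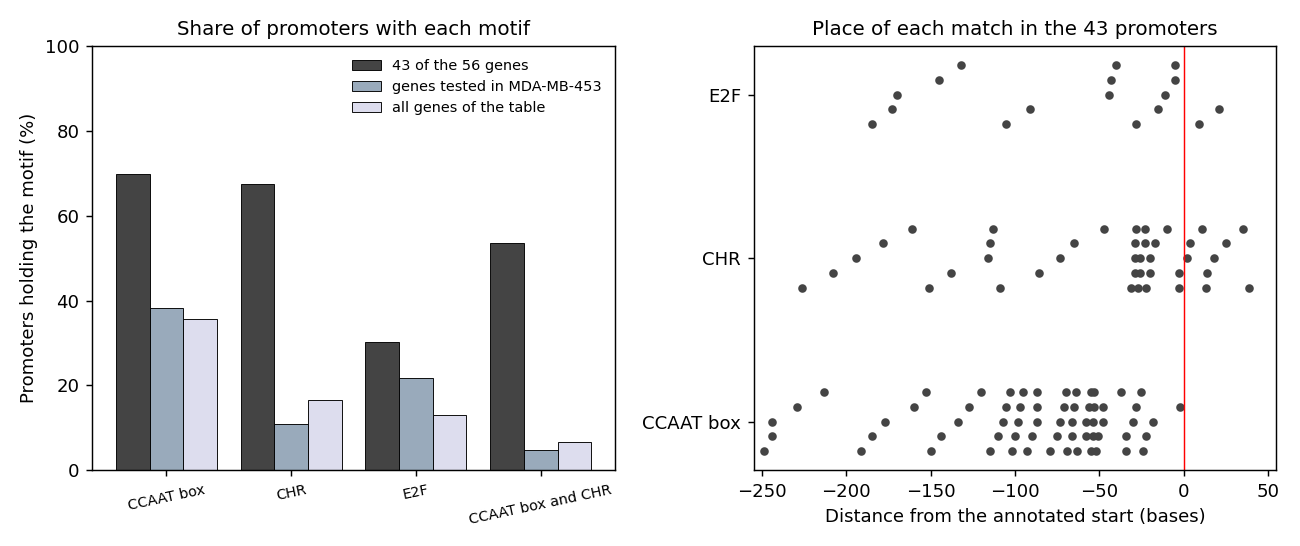
Left: share of promoters (%) holding a CCAAT box, a CHR, an E2F site or both a CCAAT box and a CHR, in 43 of the 56 genes, in genes tested in MDA-MB-453 and in all genes of the RefSeq table. Right: place of each match in the 43 promoters, in bases from the annotated start (red line). The CHR stands at 67.4% in the mitotic genes against 10.8% and 16.6%, and the CCAAT boxes crowd in the 120 bases before the start.

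Few members passed the test under fulvestrant. In MDA-MB-231, 0 of 55 were called lower and 0 higher by edgeR or DESeq2, where 0% of all genes were called in either direction. At an unadjusted p under 0.05, edgeR had 4 lower (4.14% of all genes) and DESeq2 2 (1.91%), and neither had any higher (2.93% and 1.54%). The DESeq2 shares here and in what follows are over every gene it gave a p, with no filter on low counts. The median log2 fold change was -0.01 with a range of -0.39 to 0.42. In MDA-MB-453, 0 were called lower by edgeR (0.397% of all genes) or by DESeq2, with 1 at an unadjusted p under 0.05 by each (6.52% and 3.10% of all genes). There were 2 called higher by edgeR (1.01%) and 1 by DESeq2, with 8 and 5 at the unadjusted threshold (7.06% and 3.48%), and the median was 0.09. DESeq2 gave 51 members no adjusted p here. Over both directions it called 334 of the 2233 genes that had one.

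The 2 genes called higher with fulvestrant in MDA-MB-453 were TOP2A and MKI67. TOP2A had 306, 275 and 325 CPM under DMSO and 422, 467 and 369 under fulvestrant (log2 fold change 0.49, SE 0.0983, adjusted p = 0.00522). MKI67 had 299, 263 and 287 and 414, 466 and 296 CPM (log2 fold change 0.49, SE 0.117, adjusted p = 0.0239). In both genes replicates 1 and 2 of fulvestrant were the highest and replicate 3 the lowest of the 3, and for MKI67 replicate 3 lay within the range of the DMSO libraries. With 1 library left out, the call was lost for TOP2A without DMSO replicate 2 or fulvestrant replicate 2. For MKI67 it was lost without any of the 3 DMSO libraries or fulvestrant replicates 1 or 2. The adjusted p reached 0.184 and 0.372. DESeq2 and robust dispersions each called 1 member higher in place of 2, so at least 1 of the TOP2A and MKI67 calls was lost with each. In MDA-MB-231 the same genes had log2 fold changes of -0.28 and -0.24. The difference between the lines in the fulvestrant effect was a test added after the data were seen. It was called above 0 for these 2 members by edgeR (0.737% of all genes) and for 4 by DESeq2 (4.53% of the genes it gave an adjusted p). At an unadjusted p under 0.05, 9 by each tool were above 0 (6.91% and 3.99% of all genes). The difference was called below 0 for 0 members by either tool (0.322% of all genes by edgeR), with 2 at the unadjusted threshold by each (6.65% and 4.30%). DESeq2 gave 17 members no adjusted p for this difference.

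The combination lowered most members in both lines. In MDA-MB-231, 53 of 55 were called lower against DMSO (18.3% of all genes) with a median of -1.03, and 0 higher (17.0%). BUB1B at 0.03 and CIT at 0.25 were not called. In MDA-MB-453, 53 of 55 were called lower (20.0%) with a median of -4.14, and 0 higher (17.6%), and BUB3 at 0.04 and FZR1 at -0.19 were not called. In neither line was a member higher by edgeR or DESeq2, 0 of 55 even at an unadjusted p under 0.05. These comparisons share their DMSO libraries with those of abemaciclib. The summed levels were 3734, 3949 and 3759 CPM in MDA-MB-231, then 697, 658 and 648 in MDA-MB-453.

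Against abemaciclib alone, the combination gave 0 members lower (0.0177% of all genes) and 0 higher (0.00884%) in MDA-MB-231 by edgeR. At an unadjusted p under 0.05 edgeR had 14 lower (5.72% of all genes) and 2 higher (4.43%), and DESeq2 13 (2.52%) and 1 (2.14%). DESeq2 called 2 lower, where 47 members had no adjusted p and 3.83% of the 1070 genes with one were called lower, and 0 higher. Without abemaciclib replicate 3, edgeR called 5 lower (0.337% of all genes). The median was -0.14, and -0.02 over all genes. In MDA-MB-453 the test called 1 member lower (1.21%) and 0 higher (1.25%), and DESeq2 called 0 in either direction. There, DESeq2 gave 31 members no adjusted p. Over both directions it called 292 of the 5434 genes that had one. At an unadjusted p under 0.05 edgeR had 5 higher (7.11% of all genes) and DESeq2 6 (3.69%), and they had 5 (7.92%) and 4 (4.09%) lower.

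That member was BIRC5, which had 8, 3 and 6 counts in the abemaciclib libraries of MDA-MB-453 and 0, 0 and 2 in the combination libraries (log2 fold change -2.87, SE 0.764, adjusted p = 0.0277). The ratio of the summed counts was 8.57, with a 95% exact interval from 2.04 to 76.5 that covers counting error only. The call was lost with DESeq2, in a fit of the 2 groups alone, and without abemaciclib replicates 1 or 3 or combination replicates 1 or 2. Without combination replicate 3, which held both counts, the value was -5.56 (adjusted p = 0.0159). AURKB, its partner in the chromosomal passenger complex, had 10, 0 and 0 counts against 1, 0 and 0 and was not called (log2 fold change -2.90, SE 1.17, adjusted p = 0.199). At equally few counts NEK2 and CIT went the other way, with 1 count against 8 (ratio 0.126, 95% exact interval 0.00284 to 0.940) and 1 against 7 (ratio 0.144, 0.00320 to 1.12), and neither was called. In MDA-MB-231, where the counts are high, BIRC5 was at 165, 183 and 153 CPM under abemaciclib and 126, 119.5 and 138 under the combination (log2 fold change -0.39, SE 0.108, adjusted p = 0.145).

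**Figure D4:**
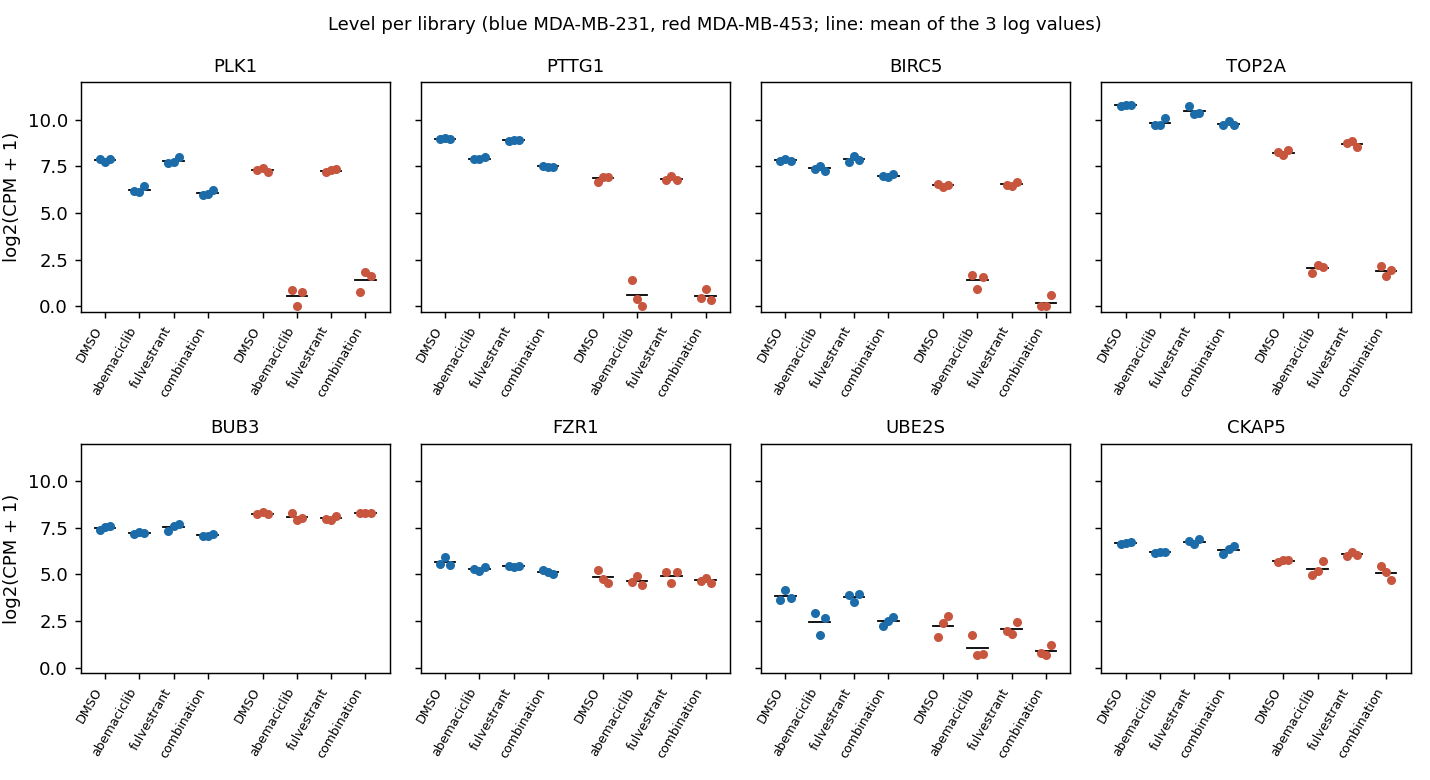
Level of 8 members in each library, as log2(CPM + 1), for MDA-MB-231 (blue) and MDA-MB-453 (red) under the 4 treatments. Points are libraries and black lines the mean of the 3 log values. PLK1, PTTG1, BIRC5 and TOP2A lie far below their DMSO points in the red abemaciclib and combination libraries, while those of BUB3, FZR1 and CKAP5 lie close to theirs and UBE2S starts low.

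Other mitotic gene lists, written from general knowledge but with earlier results of these data known, had medians nearer 0. Of the core subunits of the anaphase-promoting complex itself, 2 of 13 tested were lower and 1 higher under abemaciclib in MDA-MB-231, and 1 lower and 1 higher in MDA-MB-453. For this list and those that follow, 16.9% of all genes were lower and 16.9% higher in MDA-MB-231, while the MDA-MB-453 shares were 19.4% and 16.6%. The most abundant, CDC27, had -0.17 and 0.21, and ANAPC11, its RING subunit, -0.32 and -0.62, the latter called. ANAPC5 had -0.59, called, and -0.31. The abscission list held the ESCRT-III genes that sever the midbody, together with VPS4A, VPS4B, PDCD6IP and TSG101. Of its 16 genes, 1 was lower and 4 higher in MDA-MB-231, and 0 lower and 3 higher in MDA-MB-453, the last near the share over all genes. CHMP3 was called at 0.63 and 0.77. CHMP4B and CHMP2A were higher in MDA-MB-231 alone, at 0.68 and 0.80.

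Transcription factors of the mitotic programme with the DREAM and MYB-MuvB subunits had 6 lower and 1 higher of 13 in MDA-MB-231, and 7 lower and 1 higher in MDA-MB-453. MYBL2, which encodes B-MYB, fell by 1.42 and 7.66 on the log2 scale in MDA-MB-231 and MDA-MB-453, and FOXM1 by 0.75 and 3.79. Of the pocket proteins, RBL1 (p107) and RBL2 (p130) moved in opposite directions, at -1.16 and -2.95 and at 1.35 and 0.67, all called. RB1 had 55.4, 49.2 and 50.9 CPM under DMSO and 40.4, 36.2 and 42.6 under abemaciclib in MDA-MB-231. Its MDA-MB-453 levels were 59.5, 62.7 and 61.3 and 44.6, 46.0 and 36.4 CPM. TFDP1, the E2F partner, had -0.51 and -1.07. The MuvB subunit LIN52 was lower in MDA-MB-231 (-1.53) and not called in MDA-MB-453 (-0.23), and LIN9 the reverse (-0.97 and -1.20).

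The gamma-tubulin ring and augmin genes, which nucleate spindle microtubules, had 7 lower and 1 higher of 19 in MDA-MB-231, against 11 lower and 2 higher of 18 in MDA-MB-453. TUBG1, gamma-tubulin itself, had -0.55 and -1.37, MZT2B 0.24 and -0.88, and TUBGCP2 0.13 and -0.18. The augmin subunits HAUS1, HAUS7 and HAUS8 were lower in both lines, with values of -1.34 to -0.91 in MDA-MB-231, then -1.96 to -1.13 in MDA-MB-453. HAUS5 was called lower in MDA-MB-453 alone (-1.16), where HAUS3 (1.06) and the ring subunit TUBGCP6 (1.06) were higher. Of 9 genes of the Greatwall pathway, which restrains protein phosphatase 2A in mitosis, 5 were lower and none higher in MDA-MB-231, and 4 lower and 1 higher in MDA-MB-453. The Greatwall kinase MASTL had -0.76 and -1.61, both called, its target ENSA -0.03 and -0.17, neither called, and the phosphatase subunits PPP2CA -0.57 and -0.32 and PPP2R1A -0.10 and -0.27.

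**Figure D5:**
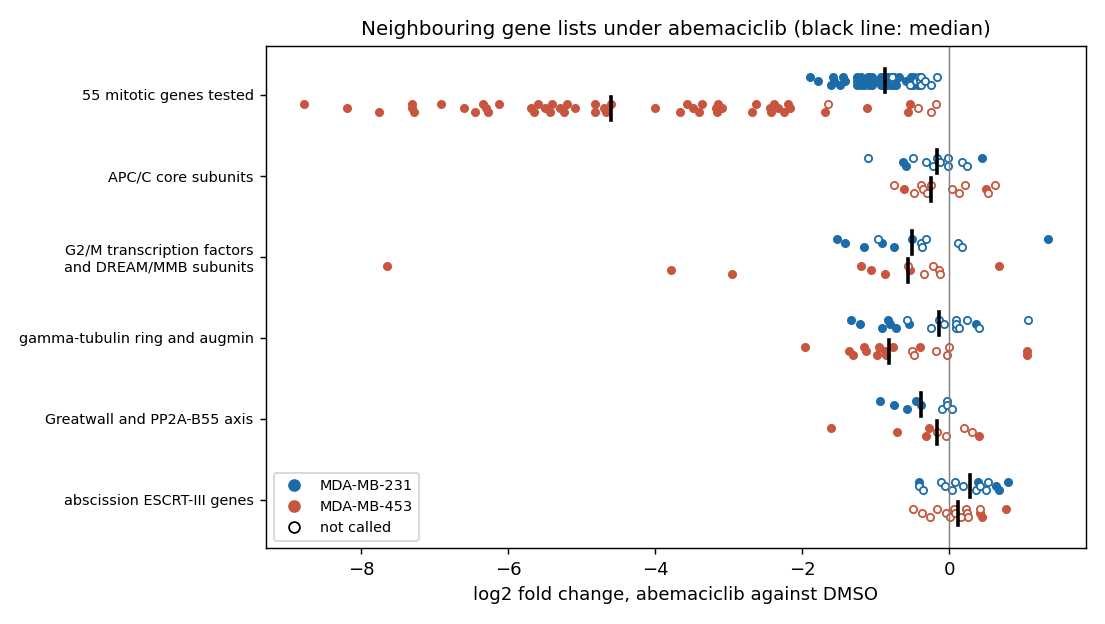
Log2 fold change, abemaciclib against DMSO, of the 55 mitotic genes tested and of 5 neighbouring lists, for MDA-MB-231 (blue) and MDA-MB-453 (red). Each point is a gene, open where it was not called, and black lines are medians. The mitotic genes have medians of -0.87 and -4.60, and no other list has a median below -0.82, although MYBL2, FOXM1 and RBL1 reach -7.66, -3.79 and -2.95 in MDA-MB-453.

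Overlapping genes may limit some of these values. In GENCODE v44, a later release than the one used for the counting, 18 members have exon bases that an opposite-strand gene also covers, among them PLK1 with ERN2, CCNA2 with EXOSC9 and PKMYT1 with PAQR4 and KREMEN2, and 6 with a gene on the same strand, among them PRC1, BUB1B and ARHGAP11A. The strand setting of the counting is not stated, so reads of such pairs may be divided or dropped.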

How the data were processed

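Raw counts per gene for 24 libraries were used as deposited. Per the labels and the study's methods, the authors made these counts by trimming reads with BBDuk, aligning them to hg38 with STAR and counting them with featureCounts on a GENCODE release earlier than v44, with no normalization. Strand, multimapping and duplicate settings are not stated, so intervals cover counting error only. The table has 1 row that names no gene, with 0 counts. Libraries were scaled with TMM (trimmed means of M values) and counts tested with edgeR 4.0.16 (filterByExpr, quasi-likelihood F test, 2-sided) within each line over its 12 libraries, and over all 24 for contrasts between lines. A call needed an adjusted p (Benjamini-Hochberg, across every gene tested) below 0.05. Per the study's methods, the 3 replicates of a group were separate cultures from 1 experiment. Over genes of at least 20 counts, replicate pairs had a chi-square per degree of freedom of 2.64 to 8.65 in all 24 pairs, so none was a copy of another. A gene at 0 was set against 3 counts over the group, or 0.248 to 0.298 CPM.

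The members and lists were chosen with earlier results of these data known. Genes given by library were the 3 with the highest mean DMSO level in each role list, those not called lower under abemaciclib in a line, and those called with fulvestrant or between the combination and abemaciclib (36 in all). From the other lists, values were given for the 3 genes with the highest DMSO level and for those called with a log2 fold change of at least 1 in size. RB1 was added to these. Alternatives were DESeq2 1.42.0, its size factors in edgeR, no filter on low counts, no mitochondrial genes, a replicate block, robust dispersions, only the groups compared, and each library left out. The pipeline was tested on simulated data. Exon overlaps came from GENCODE v44 on GRCh38 and promoters from RefSeq. One marker of another cell type is not reported here.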

Additional observations from a re-analysis of the deposited data

Results flagged for a closer look

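The effect of abemaciclib differed between the lines, and was called more negative in MDA-MB-453 for 46 of 55 members by edgeR's quasi-likelihood test over all 24 libraries. The members with the smallest adjusted p had differences in log2 fold change of -5.68 for TOP2A, -6.23 for PTTG1, -5.83 for MKI67, -5.24 for BIRC5 and -6.61 for PLK1. Without abemaciclib replicate 1 of MDA-MB-453 those of PTTG1 and PLK1 were -8.21 and -7.27. The effect of fulvestrant also differed for 2 members, by 0.76 for TOP2A and 0.71 for MKI67, in a test added after the data were seen. The adjusted p was 0.00713 for TOP2A and 0.031 for MKI67, and the TOP2A call was lost without fulvestrant replicate 1 or 2 of MDA-MB-453. For MKI67 the call was also lost without any of the MDA-MB-231 DMSO libraries and with a replicate block. Groups of 3 libraries are too small for the search for outlying samples.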

How the results depend on the processing

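Of 465 counts and medians recomputed under the alternatives, 418 stayed within the replicate spread or within 1.5 times the reported count, and 47 moved. Whether a median changed sign was not tested. The 45, 51, 53 and 53 members lower under abemaciclib and the combination in MDA-MB-231 and MDA-MB-453 never moved by 1.5 times, and 41 of 45, 50 of 51, 50 of 53 and 51 of 53 of these genes were called under every alternative run. The cause of the changes below was not tested. With DESeq2, the median under abemaciclib in MDA-MB-453 was -4.30, 2 members were lower and 47 had no adjusted p between the combination and abemaciclib in MDA-MB-231, 0 were lower between them in MDA-MB-453 (31 without an adjusted p), 1 was higher with fulvestrant in MDA-MB-453 (51 without), and 4 for the line difference of fulvestrant. The median of the combination in MDA-MB-231 was -1.0054 with no filter on low counts and -1.002 without mitochondrial genes, and each of these alternatives, like robust dispersions, gave 1 member lower between the combination and abemaciclib there. Robust dispersions gave 1 member higher with fulvestrant in MDA-MB-453. In a fit of only the groups compared, 4 were higher with fulvestrant and 0 lower between the combination and abemaciclib in MDA-MB-453.

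Replicates with the same number had correlations of their deviations between -0.156 and 0.043 in MDA-MB-231 and between -0.143 and 0.057 in MDA-MB-453, so the numbers did not pair the libraries. With a replicate block, 45 and 51 members were lower under abemaciclib, and 1 in place of 2 was higher for the line difference of fulvestrant. Under DMSO, 36 in place of 42 were lower in MDA-MB-453. The block took replicate 1 of each line as its base. This DMSO contrast therefore compared the lines at that replicate and not over all replicates, and is a different estimate.

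With each library left out in turn, members lower with fulvestrant ranged from 0 to 3 in MDA-MB-231 (3 without fulvestrant replicate 1, where 1.46% of all genes were) and from 0 to 1 in MDA-MB-453, where those higher ranged from 0 (without DMSO replicate 2 or fulvestrant replicate 2) to 4 (without fulvestrant replicate 3, where 3.69% of all genes were). Between the combination and abemaciclib, those lower ranged from 0 to 5 in MDA-MB-231, with medians of -0.2133 to -0.1028, and from 0 to 1 in MDA-MB-453, where those higher ranged from 0 to 1 (without abemaciclib replicate 1). The median of the combination in MDA-MB-231 ranged from -1.0687 to -1.0229, and that of abemaciclib in MDA-MB-453 from -4.6863 to -4.1768. Under DMSO, 1 to 3 members were higher in MDA-MB-453, with medians of -0.9392 to -0.806. The median line difference ranged from -3.7611 to -3.2772 for abemaciclib, and 0 to 5 members were higher for fulvestrant (5 without MDA-MB-231 fulvestrant replicate 1, where 2.85% of all genes were). Members with few counts in MDA-MB-453 under abemaciclib, 10 of 56 with 3 or fewer in all, limit what their fold changes can show.

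Leaving out 1 library also moved single genes across the threshold. Under abemaciclib in MDA-MB-231, WEE1, MELK, MAD2L1 and ECT2 lost their call without DMSO replicate 3 or abemaciclib replicate 2 (WEE1 also without abemaciclib replicate 3, MAD2L1 also with DESeq2), with adjusted p over all alternatives up to 0.104, 0.214, 0.277 and 0.0749. FZR1 was called without DMSO replicate 3, BUB1B without DMSO or abemaciclib replicate 1 and DEPDC1 without abemaciclib replicate 3, with adjusted p down to 0.0437, 0.0265 and 0.0404. Under abemaciclib in MDA-MB-453, BUB3 was called without abemaciclib replicate 1 and UBE2S without DMSO or abemaciclib replicate 1, with adjusted p down to 0.0158 and 0.0207, CKAP5 was called without abemaciclib replicate 3 or with robust dispersions, and CKAP2 lost its call without DMSO replicate 2. Under the combination, calls were lost in MDA-MB-231 for CDC25C without DMSO replicates 1 or 2 or combination replicate 1, for FZR1 without DMSO replicate 2 and for CKAP5 without DMSO replicates 2 or 3 or combination replicate 1 (CDC25C and CKAP5 also with no filter on low counts). In MDA-MB-453 they were lost for UBE2S without DMSO replicate 3 or combination replicates 1 or 2 and for CKAP5 without combination replicate 3. Of the 45 members called between the lines under DMSO, 36 were called under every alternative (not CDC25B, PKMYT1, NEK2, BUB1B, TTK, INCENP, TROAP, CIT and ARHGAP11A), and of the 46 for the line difference of abemaciclib, 45 were, CDC20 being the exception (without MDA-MB-453 DMSO replicate 2 or abemaciclib replicate 1, or with no filter).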
